A study of Mus musculus with 42 samples.

Results

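Young bone marrow-derived macrophages collected on day 3 after β-glucan were compared with young macrophages collected on day 3 after saline. The comparison took the 3 day 3 libraries and the 3 control libraries with replicate numbers 1 to 3, which are 6 of the 42 libraries of the series. The cells came from male wild-type C57BL/6 mice aged 10 to 12 weeks. They had received 5 µg/mL β-glucan for 24 h, or 0.1% normal saline for 24 h as control. Further groups served for comparison: young cells at the end of 24 h of β-glucan (3 libraries) and the same day 3 treatment and control in cells from male mice aged 18 to 20 months (3 libraries each). All groups were wild type, and the cells were cultured out of unfractionated marrow in M-CSF, with no sort described. The labels name biological replicates but do not say whether libraries of the same number came from the same mouse, so p-values measure the spread between libraries. In the main fit this spread was estimated from all 42 libraries of the series together, not from the 6 alone. Young control replicates 4 to 6 exist without a matching β-glucan group and were kept out of the comparison.

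β-glucan is a polysaccharide of fungal cell walls. It is bound by the C-type lectin Dectin-1 (Clec7a), which signals through the kinase Syk and the adaptor Card9 to NF-κB and NFAT. Short exposure of monocytes and macrophages followed by a rest is a standard model of trained immunity, in which cells keep an altered state after the stimulus has gone. Day 3 in this design is the rest state before any second stimulus.

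Transcripts were counted by bulk RNA sequencing, and the total count of the 6 libraries ran from 43260884 to 54477261. Levels are given as CPM (counts scaled to the library size) for replicates 1, 2 and 3 in that order. Changes are log2 fold changes ± SE of day 3 over control, n = 3 libraries per group. Calls required an edgeR quasi-likelihood p below 0.05 after Benjamini-Hochberg adjustment over the 17648 genes tested, and the words rose and fell are used for called genes. In bulk samples fewer cells of a type and less RNA per cell cannot be told apart. Of 18 macrophage identity genes all passed the count filter, and their summed level was 34493 to 37821 CPM in controls and 32325 to 34529 CPM at day 3. Defining markers of T and NK cells (Cd3d, Cd3e, Cd8a), B cells (Pax5), neutrophils (Ly6g, Retnlg) and red cells (Hbb-bs, Hba-a1) had no count in any of the 6 libraries. No gene of the lists of other cell types was called. The summed level of 4 tested T and NK cell markers, led by Cd28, Cd4 and Lck, was 119 to 158 CPM in controls. At day 3 it was 126 to 137 CPM. That of 10 dendritic cell markers was 273 to 285 CPM in controls and 246 to 281 CPM at day 3. The summed level of 10 neutrophil markers was 77.2 to 81.9 CPM in controls and 58.6 to 61.4 CPM at day 3, and that of 5 B cell markers was 7.58 to 13.4 and 4.37 to 6.82 CPM. The summed level of 7 endothelial markers, mostly Vwf, Eng and Flt1, was 162 to 174 CPM in controls and 197 to 253 CPM at day 3. That of 5 erythroid and megakaryocyte markers, led by Pf4, Gp1ba and Epor, was 115.9 to 130.5 CPM in controls and 72.2 to 94.9 CPM at day 3. Pf4, the most abundant of them, is also on the list of chemokines. That of 17 stromal markers was 47.7 to 62.4 and 62.1 to 72.1 CPM, and the median change over these 17 was 0.45, with 5 members wholly above the controls and none below. Of all tested genes 8.49% lay wholly above and 9.24% wholly below. The stromal markers Col1a1 and Col1a2 had estimates below 0 against young control replicates 4 to 6. The part of the markers of other cell types in the results was not tested.

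At day 3 the difference between β-glucan and saline cells passed the test in few genes. Of the tested genes 116 (0.657%) were called, 77 higher (0.436%) and 39 lower (0.221%), while 1732 had an unadjusted p below 0.05. These shares are the background for every count of called list members given below. Genes of lipid handling and lysosomes, an integrin, cell-surface ligands and a chemokine were among those that rose. Receptors that sense microbes or restrain myeloid cells, a monocyte gene and macrophage surface markers were among those that fell. The changes were mostly modest: 32 of the 77 and 4 of the 39 exceeded 2-fold, and the median log2 size was 0.76 among the higher and 0.62 among the lower genes. The 3 day 3 libraries lay wholly above the 3 controls for 76 of the 77 (8.49% of all tested genes) and wholly below them for 38 of the 39 (9.24% of all tested genes). They also lay outside the range of all 6 young controls, replicates 4 to 6 included, for 61 of the 77 (3.16% of all) and for 29 of the 39 (2.89% of all). The count of calls depended on single libraries: it was 62 without control replicate 1, 48 without control replicate 3, 60 without day 3 replicate 2 and 64 without day 3 replicate 3. It was 437 (2.48%) when the 6 libraries were fitted alone, 222 higher (1.26%) and 215 lower (1.22%), and 31 of the 116 genes, 21 higher and 10 lower, were called under each of the 17 alternatives tried.

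**Figure D1:**
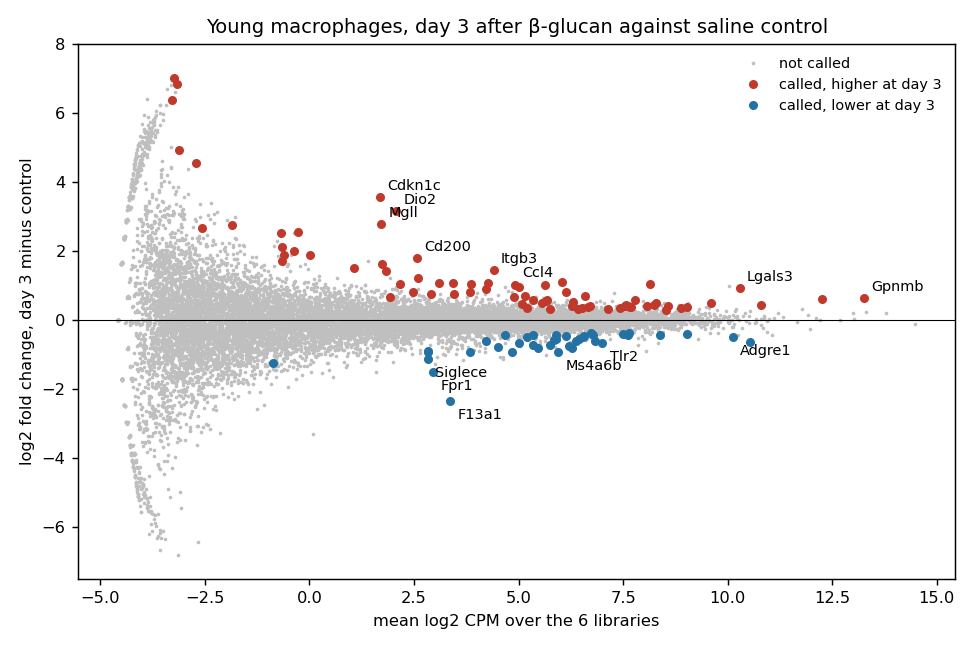
Each point is 1 of the 17648 tested genes, with the mean log2 CPM over the 6 libraries on the x axis and the log2 fold change of day 3 over control on the y axis. The 77 called genes that were higher are red and the 39 that were lower are blue; Dio2 and F13a1 have the largest changes among the labelled higher and lower genes with a call under every alternative.

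Some genes of lipid handling and lysosomes were among those that rose. Gpnmb (ENSMUSG00000029816, chromosome 6, 49036546 to 49070929, mm10), a lysosome-associated glycoprotein of lipid-laden macrophages, had the largest gain in library share. Its level was 8161, 7455 and 8076 CPM in the controls and 12438, 10899 and 13526 CPM at day 3 (0.64 ± 0.10, adjusted p = 0.000504). The ranges did not overlap. Lgals3 (ENSMUSG00000050335, chromosome 14, 47367751 to 47386160) encodes galectin-3, a β-galactoside-binding lectin that has been studied as a partner of Dectin-1. It went from 896, 942 and 877 CPM to 1623, 1930.1 and 1631 CPM (0.93 ± 0.13, adjusted p = 8.9e-05), so that every day 3 library stood well above every control. Mfge8 (ENSMUSG00000030605, chromosome 7, 79133768 to 79149060) encodes a secreted bridge between phosphatidylserine on dying cells and integrins of the phagocyte. It had 217, 198 and 176 CPM in controls and 417, 404 and 388 CPM at day 3 (1.03 ± 0.15, adjusted p = 8.9e-05), the highest control lying far below the lowest day 3 library. Of 21 genes of dead-cell clearance (efferocytosis), Mfge8 and Itgb3 rose, Stab1 fell and 18 did not pass. The median of that list was -0.09, with 8 estimates above 0, 3 members wholly above the controls and 6 wholly below. Over all tested genes 8467 of 17648 estimates were above 0, 8.49% of genes lay wholly above and 9.24% wholly below.

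Spp1, encoding the secreted phosphoprotein osteopontin, was at 3940.5, 4329 and 3708 CPM in controls and 6201, 5979.6 and 5929 CPM at day 3 (0.60 ± 0.12, adjusted p = 0.00795). The 3 day 3 libraries lay close together and above all controls. The fatty acid-binding protein genes Fabp4 (0.82 ± 0.16, adjusted p = 0.00551) and Fabp5 (0.50 ± 0.11, adjusted p = 0.0124) and the lipid droplet coat gene Plin2 (0.39 ± 0.081, adjusted p = 0.00869) rose. These were the 3 called genes of 25 tested genes for LXR targets and lipid handling, a list whose median change was 0.02. Fabp5 had 698, 599 and 661 CPM in controls and 931, 1007 and 838 CPM at day 3. The cholesterol exporter Abca1 (-0.47 ± 0.16, adjusted p = 0.229) and Apoe (-0.43 ± 0.17, adjusted p = 0.316) of the same list did not pass. None of 25 genes of cholesterol synthesis was called. Some of these calls depended on single libraries (edgeR adjusted p in parentheses) and were lost without control replicate 1 for Plin2 (0.0831) and Spp1 (0.0538), without control replicate 2 for Fabp5 (0.0976) and without control replicate 3 for Fabp4 (0.0698), Fabp5 (0.066), Plin2 (0.0725) and Spp1 (0.0858). Further losses occurred without day 3 replicate 1 for Fabp5 (0.0526) and Plin2 (0.054) and without day 3 replicate 2 for Fabp4 (0.0502), Fabp5 (0.139) and Plin2 (0.0925).

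Among 44 lysosome and proton pump genes 3 rose, Gpnmb and Gla among them, Ctsc fell and the other 40 did not pass. The median change of this list was 0.14, against -0.01 over all tested genes. In 37 of its 44 members the estimate was above 0, which held for 34 to 37 members under the alternatives, and in 26 the day 3 libraries lay wholly above the controls. Over all tested genes 8467 of 17648 estimates were above 0, and 8.49% of genes lay wholly above. In the fit of the 6 libraries alone 7 were called higher and 1 lower, against 1.26% and 1.22% of all tested genes. Gla (ENSMUSG00000031266, chromosome X, 134588150 to 134601120) encodes α-galactosidase A, which removes terminal galactose from glycolipids. It was at 158, 174 and 155 CPM in controls and 221, 218 and 204 CPM at day 3 (0.40 ± 0.074, adjusted p = 0.00206). Ctsc encodes cathepsin C, the dipeptidyl peptidase that activates granule serine proteases. It went the other way, from 379.9, 386 and 398 CPM to 294, 291 and 283 CPM (-0.42 ± 0.088, adjusted p = 0.00795). Gla and Ctsc had groups that did not overlap. The call was lost without control replicate 3 for Ctsc (0.0659) and without day 3 replicate 3 for Ctsc (0.0608) (edgeR adjusted p in parentheses).

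Lysosomal genes are often read through the E-box CACGTG, bound by factors of the TFEB and MITF family. The 250 bases upstream of the RefSeq start of Gla (GRCm38.p6) held this motif at a pair of sites, shown here because Gla kept its call under every alternative. The capitals mark the motif.
Gla (chrX:134601207-134601252, minus strand): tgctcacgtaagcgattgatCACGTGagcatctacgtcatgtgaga
Gla (chrX:134601174-134601219, minus strand): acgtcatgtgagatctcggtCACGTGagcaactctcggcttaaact
The motif is its own reverse complement. It was present in 8.20% of the upstream windows of 11337 tested genes that matched a RefSeq window, in 4 of 57 called genes that rose (7.02%) and in none of 34 called genes that fell. A match of letters is a description and not a measured binding site.

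**Figure D2:**
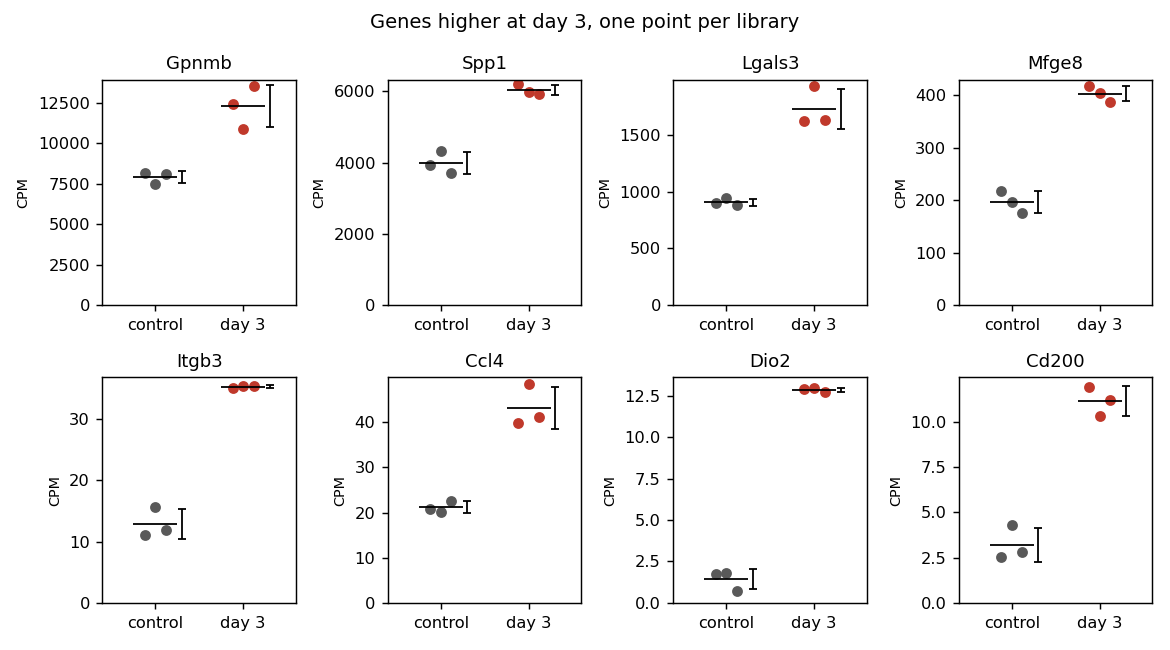
CPM per library (linear axis from 0) of 8 genes that rose, with controls in grey and day 3 in red; the horizontal bar is the mean and the error bar the SD of n = 3. In each of the 8 genes the 3 day 3 libraries lie above the 3 controls, from Gpnmb, the most abundant, to Dio2 and Cd200 at 10 to 13 CPM at day 3.

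Surface ligands, secreted factors and an integrin also rose. The integrin subunit Itgb3 (ENSMUSG00000020689, chromosome 11, 104608000 to 104670480), which pairs with αv to bind osteopontin and MFG-E8 and marks the osteoclast lineage, was at 11.1, 15.7 and 11.8 CPM in controls. It was at 35, 35.5 and 35.4 CPM at day 3 (1.46 ± 0.27, adjusted p = 0.00371). The tetraspanin gene Cd9 rose as well (0.39 ± 0.082, adjusted p = 0.00856). These were the called members among 23 osteoclast and cell-fusion genes. The list had a median change of 0.17, with 17 estimates above 0 (14 to 17 under the alternatives) and 10 members whose day 3 libraries lay wholly above the controls. Over all tested genes 8467 of 17648 estimates were above 0, and 8.49% of genes lay wholly above. Other osteoclast genes had estimates that did not pass, such as the protease gene Ctsk (0.86 ± 0.26, adjusted p = 0.125), the kinase gene Src (1.72 ± 0.57, adjusted p = 0.203), the proton pump subunit Atp6v0d2 (0.79 ± 0.25, adjusted p = 0.179) and Acp5 (0.56 ± 0.24, adjusted p = 0.41). The fusion gene Dcstamp (0.04 ± 0.44, adjusted p = 1) and the regulator Nfatc1 (-0.11 ± 0.09, adjusted p = 0.792) did not pass either. Src passed in the fit of the 6 libraries alone, as did Ctsk. The call was lost without control replicate 3 for Cd9 (0.061) and without day 3 replicate 3 for Cd9 (0.0663) (edgeR adjusted p in parentheses).

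The chemokine gene Ccl4 (ENSMUSG00000018930, chromosome 11, 83662584 to 83664683), which encodes a secreted attractant of leukocytes, was at 20.8, 20.2 and 22.6 CPM in controls and 39.9, 48.5 and 41.2 CPM at day 3 (1.03 ± 0.12, adjusted p = 3.45e-06). It was the one called gene among 23 chemokines, while 0.657% of all tested genes were called. In the fit of the 6 libraries alone Ccl2, Ccl3 and Ccl7 were also called higher and Pf4 lower. The day 3 libraries had about 2-fold higher levels and did not overlap the controls. Among 29 tested cytokines Spp1 alone was called, joined by Il1rn and Csf1 when the 6 libraries were fitted alone. Tnf (-0.35 ± 0.21, adjusted p = 0.64), Il1b (-0.55 ± 0.50, adjusted p = 0.815) and the receptor antagonist Il1rn (0.94 ± 0.30, adjusted p = 0.18) did not pass. Il6 had a few counts in the controls and none at day 3. Cd274, encoding the checkpoint ligand PD-L1, was the called gene among 15 costimulatory and checkpoint ligands. It went from 26.3, 27.7 and 29.5 CPM to 47.3, 47.1 and 41.8 CPM (0.71 ± 0.14, adjusted p = 0.00567), with no overlap. The call was lost without control replicate 1 for Cd274 (0.0538) (edgeR adjusted p in parentheses).

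Several strongly changed genes lay outside the rule for named genes, mostly because of a low level, and were picked after their values were seen. Dio2 (ENSMUSG00000007682, chromosome 12, 90724552 to 90738438), the deiodinase that converts thyroxine to active thyroid hormone, had the smallest adjusted p of all genes. It was at 1.72, 1.83 and 0.743 CPM in controls and 12.9, 12.9 and 12.7 CPM at day 3 (3.16 ± 0.35, adjusted p = 1.97e-06), a change of 8.92-fold in mean level with day 3 libraries that were nearly equal. Mgll, which encodes the lipase that splits monoacylglycerols, went from 1.56, 0.684 and 1.58 CPM to 7.39, 10.7 and 8.23 CPM (2.79 ± 0.47, adjusted p = 0.00106). The gene of the inhibitory ligand CD200, Cd200, went from 2.54, 4.29 and 2.84 CPM to 11.9, 10.3 and 11.2 CPM (1.78 ± 0.26, adjusted p = 0.000274). In all 3 genes the lowest day 3 library was more than 2-fold above the highest control. Inhba, the activin A subunit gene, had 2.43, 1.69 and 2.48 CPM in controls and 7.02, 4.3 and 6.33 CPM at day 3 (1.42 ± 0.28, adjusted p = 0.00506). The call was lost without control replicate 2 for Inhba (0.0514) and against young control replicates 4 to 6 for Inhba (0.0923) (edgeR adjusted p in parentheses).

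Further genes with rises past the named-gene rule were diverse in function. Npy, encoding neuropeptide Y, was at 40.1, 29.9 and 34.7 CPM in controls and 74.5, 68.4 and 68.2 CPM at day 3 (1.01 ± 0.14, adjusted p = 8.9e-05). Plk2, a polo-like kinase gene, went from 40.3, 55 and 40.3 to 88, 106 and 95.5 CPM (1.10 ± 0.15, adjusted p = 8.9e-05). Procr, the endothelial protein C receptor gene, went from 3.97, 3.25 and 4.65 to 9.11, 8.62 and 9.96 CPM (1.22 ± 0.23, adjusted p = 0.00405) and was the called gene among 28 genes of matrix, proteases and inhibitors. All of these had day 3 libraries above the whole control range. So did the transcriptional regulator Dach1 (1.06 ± 0.18, adjusted p = 0.000549), Arfgef3 (0.96 ± 0.16, adjusted p = 0.000613), Stac2 (1.08 ± 0.21, adjusted p = 0.00537) and the lipid phosphatase Plpp3 (1.08 ± 0.19, adjusted p = 0.00168), which kept their calls under every alternative.

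Regulators and stress genes had called members in several lists. Of all tested genes 0.436% rose and 0.221% fell. Among 43 macrophage transcription factors Id2 (0.35 ± 0.07, adjusted p = 0.0054), an inhibitor of basic helix-loop-helix factors, Atf3 (0.41 ± 0.10, adjusted p = 0.0281), a stress-induced repressor, and the orphan nuclear receptor Nr4a3 rose, and Maf fell (-0.40 ± 0.078, adjusted p = 0.00405). Maf promotes differentiation and restrains self-renewal of macrophages, and was at 573, 583 and 629 CPM in controls and 444, 444 and 467 CPM at day 3. Atf3 and the pseudokinase gene Trib3 (1.05 ± 0.26, adjusted p = 0.0363) were the called members of 27 genes of the integrated stress and unfolded protein response, and the libraries of Atf3 overlapped between the groups. Cdkn1c, encoding the cell cycle inhibitor p57, was the called one of 22 p53 targets and cell cycle inhibitors. It went from 0.976, 0.753 and 1.03 to 11.3, 10.4 and 10.6 CPM (3.55 ± 0.72, adjusted p = 0.00928). None of 28 replication or 30 mitosis genes was called, and the proliferation marker Mki67 was at 297, 537 and 285 CPM in controls and 327, 416 and 389 CPM at day 3. The calls did not all hold (edgeR adjusted p in parentheses): they were lost without control replicate 1 for Atf3 (0.175), Cdkn1c (0.0657), Nr4a3 (0.17) and Trib3 (0.0804), without control replicate 2 for Cdkn1c (0.0606), Nr4a3 (0.142) and Trib3 (0.125), without control replicate 3 for Atf3 (0.283), Cdkn1c (0.066), Id2 (0.061), Maf (0.061), Nr4a3 (0.105) and Trib3 (0.185), without day 3 replicate 1 for Atf3 (0.0755), Nr4a3 (0.115) and Trib3 (0.0969) and without day 3 replicate 2 for Atf3 (0.304), Id2 (0.0603), Nr4a3 (0.171) and Trib3 (0.276). The same occurred in the fit of these 6 libraries alone for Atf3 (0.247) and Nr4a3 (0.126), without the count filter for Nr4a3 (0.0653), in the legacy fit for Trib3 (0.0658), with all 6 young controls and a set term for Maf (0.232) and against young control replicates 4 to 6 for Trib3 (0.109).

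Genes of more general function were also called and were picked after their values were seen. Rnh1, encoding the ribonuclease inhibitor, was at 256, 257 and 267 CPM in controls and 366, 356 and 342 CPM at day 3 (0.45 ± 0.074, adjusted p = 0.000538). Psmd8, a subunit gene of the proteasome cap, was at 175, 176 and 184 CPM and 234, 235 and 229 CPM (0.39 ± 0.067, adjusted p = 0.000962). Both changes were small, with replicates close together. The lysosomal membrane gene Gpr137b (0.50 ± 0.087, adjusted p = 0.000968), the receptor Lrp12 (0.42 ± 0.083, adjusted p = 0.00501) and the secreted protease Adamts1 (1.61 ± 0.28, adjusted p = 0.000864) rose likewise and kept their calls under every alternative. Gpr137b has a transcribed pseudogene copy, Gpr137b-ps (0.41 ± 0.085, adjusted p = 0.00809), so that reads may be shared between them. The call of Gpr137b-ps was lost without control replicate 3 (edgeR adjusted p = 0.138).

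A few called genes were close to the detection limit and have no usable fitted fold. Nr4a3 had 1 count over the 3 controls and 17, 22 and 7 counts at day 3, a ratio of 43.0 (95% exact interval 7.35 to 1736, counting error only). Orm1, encoding an acute-phase plasma protein, had 3 counts in controls and 82 at day 3, a ratio of 25.6 (8.45 to 127). Its day 3 counts were 52, 19 and 11, so that replicate 1 carried most of them. In young control replicates 4 to 6 Orm1 had 0, 11 and 1 counts and Nr4a3 had 0, 6 and 0. Sfrp5, a secreted Wnt antagonist gene, had no control count against 52 at day 3, which is at least 16.2-fold higher when the floor is 3 counts over the control group. The calcium channel gene Ryr1 had no count in these controls and 39 at day 3, but 7, 3 and 11 counts in young control replicates 4 to 6. The gene listed as 2010300C02Rik had 0 counts against 3, 48 and 13, so that replicate 2 carried most of them, and 0, 24 and 7 counts in control replicates 4 to 6. Against those controls neither Ryr1 (0.78, adjusted p = 0.703) nor 2010300C02Rik (0.88, adjusted p = 0.577) passed, so no fold is given for them. These calls were fragile (edgeR adjusted p in parentheses). That of Ryr1 was lost in 12 of the 17 alternatives, among them each fit that left out 1 of the 6 libraries (0.0675 to 0.174). That of 2010300C02Rik was lost in 7, among them without day 3 replicate 2 (0.137) and without control replicate 1 (0.0689), 2 (0.0529) or 3 (0.0698). That of Sfrp5 was lost in 5, without day 3 replicate 1 (0.115), control replicate 1 (0.112), 2 (0.0869) or 3 (0.104) and with the 6 libraries alone (0.0594). That of Orm1 was lost in 4, without day 3 replicate 1 (0.203), control replicate 1 (0.133) or control replicate 3 (0.122) and with the 6 libraries alone (0.0874).

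Among the genes that fell, F13a1 (ENSMUSG00000039109, chromosome 13, 36867178 to 37050244) had the largest change. It encodes the A subunit of coagulation factor XIII, a product of monocytes and some resident macrophages. Its level was 24.9, 19.2 and 25.7 CPM in controls and 5.13, 4.12 and 4.44 CPM at day 3 (-2.35 ± 0.37, adjusted p = 0.000538), or 19.6% of the control mean, with wide separation of the groups. Of 16 tested monocyte and early myeloid genes it fell together with Treml4 (-0.93 ± 0.21, adjusted p = 0.0201), against 0.221% of all tested genes. The median of that list was -0.40. The chemokine receptors Ccr2 (-0.65 ± 0.37, adjusted p = 0.624) and Cx3cr1 (-0.68 ± 0.51, adjusted p = 0.763) of that list did not pass. Of the 18 macrophage identity genes Adgre1 and Aif1 fell and the other 16 did not pass. Adgre1, encoding F4/80, the defining surface marker of mouse macrophages, went from 1285, 1339 and 1337 CPM to 972, 921 and 949 CPM (-0.48 ± 0.086, adjusted p = 0.00124). Aif1, the actin-binding protein IBA1, went from 57.2, 48.8 and 70.6 CPM to 34.2, 32.9 and 34.4 CPM (-0.80 ± 0.14, adjusted p = 0.000864). Neither gene had overlapping groups. The scavenger receptor gene Stab1 was at 2007, 1549 and 2058 CPM in controls and 1243, 1128 and 1207 CPM at day 3 (-0.65 ± 0.13, adjusted p = 0.00501). The growth factor receptor Csf1r (-0.35 ± 0.10, adjusted p = 0.119) and the mannose receptor Mrc1 (-0.54 ± 0.15, adjusted p = 0.0885) had estimates below 0 that did not pass. Both were called lower in the fit of the 6 libraries alone. In that fit 4 of the 18 identity genes were called lower, Csf1r and Fcgr1 among them, against 1.22% of all tested genes. Some of these calls depended on single libraries (edgeR adjusted p in parentheses) and were lost without control replicate 1 for Treml4 (0.0917) and without control replicate 3 for Stab1 (0.0659) and Treml4 (0.171). Further losses occurred without day 3 replicate 1 for Treml4 (0.0534) and without day 3 replicate 2 for Stab1 (0.0502) and Treml4 (0.243).

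**Figure D3:**
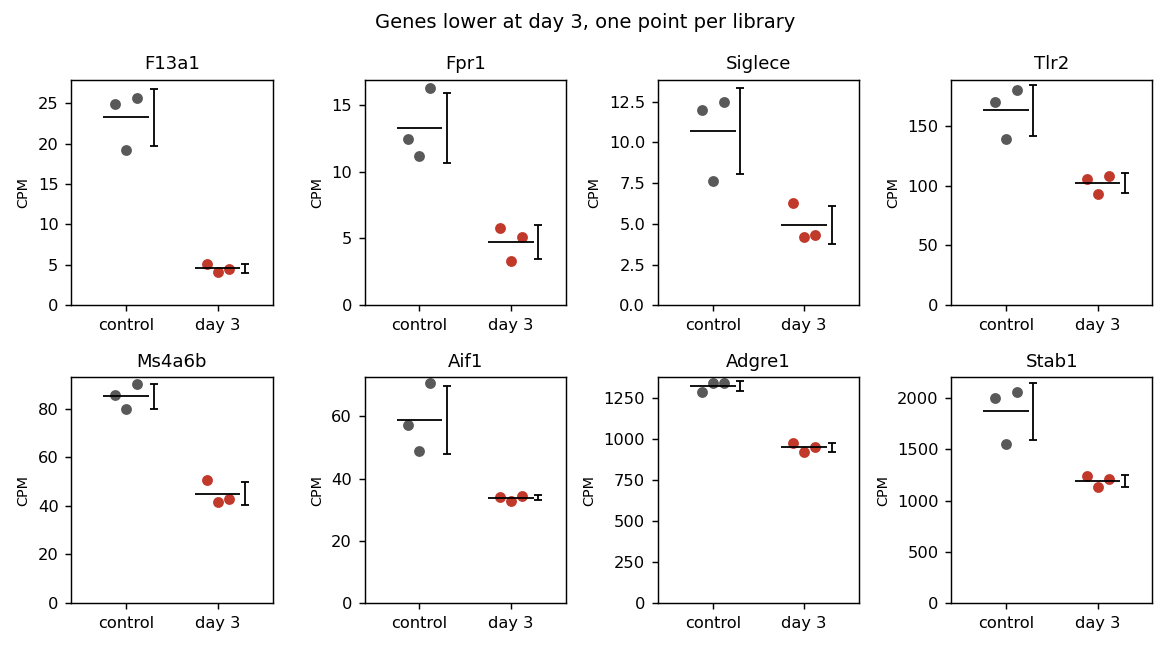
CPM per library (linear axis from 0) of 8 genes that fell, with controls in grey and day 3 in red; the horizontal bar is the mean and the error bar the SD of n = 3. All 3 day 3 libraries lie below all 3 controls in each gene, and F13a1 shows the deepest fall.

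Receptors that sense microbes or peptides of microbes were lower in several cases. Of 38 pattern receptors and adaptors Tlr2 and Ly86 fell, none rose, and 36 did not pass. Their median change was -0.12, and in 14 members the day 3 libraries lay wholly below the controls, against 9.24% of all tested genes. In the fit of the 6 libraries alone 8 were called lower, against 1.22% of all tested genes. Tlr2 (ENSMUSG00000027995, chromosome 3, 83836272 to 83841767), the receptor for bacterial lipopeptides that cooperates with Dectin-1, was at 169.9, 139 and 179.5 CPM in controls and 106, 92.9 and 108 CPM at day 3 (-0.67 ± 0.11, adjusted p = 0.000549). Ly86, encoding MD-1, the partner of the TLR homologue CD180, was at 28.7, 30 and 31.6 CPM and 18, 19.8 and 14.2 CPM (-0.79 ± 0.15, adjusted p = 0.00236). Both had groups without overlap. The β-glucan receptor gene Clec7a (0.43 ± 0.23, adjusted p = 0.566), with 195, 361 and 177 CPM in controls and 294, 370.1 and 324 CPM at day 3, did not pass, and control replicate 2 was far above the other controls. Tlr4 (-0.20 ± 0.13, adjusted p = 0.711), Syk (0.14 ± 0.10, adjusted p = 0.718) and Card9 (-0.17 ± 0.11, adjusted p = 0.686) did not pass either. Fpr1, the receptor for formylated bacterial peptides, was the called one of 21 tested chemoattractant receptors, while 0.221% of all tested genes fell. It went from 12.4, 11.1 and 16.2 CPM to 5.79, 3.3 and 5.09 CPM (-1.49 ± 0.22, adjusted p = 0.000274). The call was lost without day 3 replicate 3 for Ly86 (0.0518) (edgeR adjusted p in parentheses).

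The upstream window of Tlr2 held a 10-base match to the NF-κB motif, searched on both strands as GGGA, any 2 bases, T, any base and CC. It is shown in capitals, with RefSeq sequence of GRCm38.p6.
Tlr2 (chr3:83841751-83841800, minus strand): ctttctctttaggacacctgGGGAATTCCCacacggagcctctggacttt
This motif was present in 3.55% of all 11337 windows, in 2 of 57 genes that rose (3.51%) and in 4 of 34 that fell (11.8%). The stretch shown for Tlr2 is upstream of the RefSeq start but partly overlaps the gene span given above.

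Immune receptors with inhibitory or activating signalling made up a further group. Of 25 tested members 4 fell (Siglece, Pilrb1, Pilra and Treml4), none rose and 21 did not pass, with a median of 0.04. Of all tested genes 0.221% fell. In this list 4 members lay wholly above the controls and 7 wholly below, against 8.49% and 9.24% of all tested genes. Siglece, an inhibitory sialic acid-binding lectin of mouse myeloid cells, had 12, 7.63 and 12.5 CPM in controls and 6.3, 4.18 and 4.3 CPM at day 3 (-1.12 ± 0.19, adjusted p = 0.000533). Pilrb1 (-0.91 ± 0.17, adjusted p = 0.00239), an activating receptor, and Pilra (-0.51 ± 0.12, adjusted p = 0.0186), its inhibitory counterpart, fell. So did their neighbour Pilrb2 (-0.92 ± 0.22, adjusted p = 0.0287), which was named after its values were seen. Pilra was at 48.4, 33.3 and 51.2 CPM in controls and 32.7, 27.3 and 33.5 CPM at day 3, and its lowest control lay inside the day 3 range. With other choices (edgeR adjusted p in parentheses) calls were lost without control replicate 1 for Pilra (0.17) and Pilrb2 (0.139), without control replicate 3 for Pilra (0.232) and Pilrb2 (0.162) and without day 3 replicate 2 for Pilra (0.241) and Pilrb2 (0.192). Calls also ended without day 3 replicate 3 for Pilrb1 (0.0516) and Pilrb2 (0.174) and in the fit of these 6 libraries alone for Pilra (0.184).

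The Pilr genes are related in sequence, and reads may have been shared among them, so that their separate values are uncertain; the likeness of their transcripts was not measured. Their upstream windows are shown because they are alike, with a match to the interferon-stimulated response element, searched on both strands as GAAA, any 2 bases and GAAA, in capitals (RefSeq, GRCm38.p6).
Pilra (chr5:137836427-137836476, minus strand): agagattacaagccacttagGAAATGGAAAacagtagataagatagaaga
Pilrb1 (chr5:137858252-137858299, minus strand): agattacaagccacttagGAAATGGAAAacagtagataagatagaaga
Pilrb2 (chr5:137871961-137872008, minus strand): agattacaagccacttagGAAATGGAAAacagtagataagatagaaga
The 250-base windows of Pilrb1 and Pilrb2 were identical in 98.4% of aligned bases. The motif was present in 2.86% of all windows, in 2 of 57 genes that rose and in 4 of 34 that fell, and the 3 Pilr genes are 3 of those 4.

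Of 10 tested genes of the Ms4a family of membrane proteins, all on chromosome 19, 3 fell, none rose and 7 did not pass, with a median of -0.50 and 7 estimates below 0. Of all tested genes 0.221% fell. The family was picked after its values were seen. Ms4a6b (ENSMUSG00000024677, chromosome 19, 11516512 to 11531256) went from 85.6, 79.8 and 90.1 CPM to 50.6, 41.6 and 42.8 CPM (-0.92 ± 0.14, adjusted p = 0.000274), with no overlap. Ms4a6c (-0.62 ± 0.13, adjusted p = 0.00809) and Ms4a14 (-0.76 ± 0.16, adjusted p = 0.0124) fell too, and the transcript BE692007 on the same chromosome was at 40.3, 37.5 and 41.5 CPM and 24.2, 17.6 and 21 CPM (-0.93 ± 0.12, adjusted p = 1.79e-05). The upstream windows of Ms4a6b and Ms4a6c shared 155 of 173 aligned bases (89.6%), with 154 gaps in the alignment of the 250-base windows, and both held AGGAAGT, a form of the site of PU.1 and other ETS factors (capitals, searched on both strands, GRCm38.p6).
Ms4a6b (chr19:11518453-11518499, plus strand): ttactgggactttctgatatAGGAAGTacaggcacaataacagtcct
Ms4a6c (chr19:11469331-11469367, plus strand): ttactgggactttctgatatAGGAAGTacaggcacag
The Ms4a6b stretch is upstream of the RefSeq start but lies inside the gene span given above, which starts elsewhere. AGGAAGT was present in 7.88% of all windows, in 4 of 57 genes that rose (7.02%) and in 5 of 34 that fell (14.7%). The 5 are Ms4a6b, Ms4a6c, Pilrb1, Pilrb2 and Ctsc, so that 4 of them come from 2 pairs of genes with like windows. The calls did not all hold (edgeR adjusted p in parentheses): they were lost without control replicate 1 for Ms4a14 (0.0964), without control replicate 3 for Ms4a14 (0.061) and Ms4a6c (0.0858) and without day 3 replicate 1 for Ms4a14 (0.074). The same occurred without day 3 replicate 2 for Ms4a14 (0.139) and Ms4a6c (0.106), without day 3 replicate 3 for Ms4a6c (0.0723) and against young control replicates 4 to 6 for Ms4a14 (0.0869).

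Other genes that fell included Aoah (-0.81 ± 0.18, adjusted p = 0.0201), whose product removes acyl chains from lipopolysaccharide, the cytokine receptor Il21r (-0.57 ± 0.12, adjusted p = 0.00938) and March1 (-0.54 ± 0.12, adjusted p = 0.018), a ubiquitin ligase for MHC class II and the called one of 16 genes of class II presentation. Nfxl1 (-0.74 ± 0.12, adjusted p = 0.000308) and the globin gene Adgb (-0.73 ± 0.12, adjusted p = 0.000274) fell and kept their calls under every alternative. Aoah was at 111, 84.6 and 118 CPM in controls and 67.5, 50.5 and 60.5 CPM at day 3. Some of these calls depended on single libraries (edgeR adjusted p in parentheses) and were lost without control replicate 1 for Aoah (0.109) and Il21r (0.0838), without control replicate 2 for March1 (0.127), without control replicate 3 for Aoah (0.143), Il21r (0.0702) and March1 (0.0681) and without day 3 replicate 1 for March1 (0.054). Further losses occurred without day 3 replicate 2 for Aoah (0.182), Il21r (0.0719) and March1 (0.19), without day 3 replicate 3 for Aoah (0.0838) and Il21r (0.0791), against young control replicates 4 to 6 for March1 (0.162) and in the fit of young replicates 1 to 3 for Aoah (0.0552) and March1 (0.0508).

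Many programmes tied to β-glucan training had no called gene at day 3. Of all tested genes 0.657% were called, so a list of 20 to 40 genes without a call is near that share. The missing calls are therefore no result about these lists. Of the 53 lists examined 23 had a called member. None was called among 23 glycolysis genes, 28 genes of mTOR and amino acid transport, 20 hypoxia genes, 28 genes of the TCA cycle, itaconate and glutamine, 32 nuclear genes of the respiratory chain, 40 histone- and DNA-modifying enzymes, 29 NF-κB genes or 24 antimicrobial genes. Hk2 (-0.21 ± 0.16, adjusted p = 0.761), Ldha (0.15 ± 0.11, adjusted p = 0.761), Hif1a (-0.14 ± 0.11, adjusted p = 0.784), Mtor (-0.04 ± 0.085, adjusted p = 0.96) and the histone methyltransferase Setd7 (-0.10 ± 0.14, adjusted p = 0.911) did not pass. Setd7 was at 64.9, 84.5 and 68.9 CPM in controls and 62.3, 69.9 and 72.1 CPM at day 3. Acod1, the itaconate-producing enzyme, was at 22.3, 13 and 31.8 CPM and 28.8, 15 and 21.4 CPM (-0.04 ± 0.30, adjusted p = 0.996), with overlapping groups. With the 6 libraries fitted alone (1.26% of all genes higher, 1.22% lower), Hk3, Pfkfb3 and Pgam1 of the 23 glycolysis genes were called higher. So were Slc7a11 of the mTOR and amino acid transport list and Dnmt3a of the modifying enzymes. Sesn1, Glul, Nlrp3, Nfkbiz and Ikbke were called lower in that fit. In 7 of the 23 glycolysis genes the day 3 libraries lay wholly above the controls, against 8.49% of all genes, and in 1 wholly below. Of the 29 NF-κB genes 9 lay wholly below, against 9.24% of all genes, and 2 wholly above, with a median change of -0.15.

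Interferon-stimulated genes had no called member among 48 tested, although their estimates lay mostly below 0. The median was -0.26, 44 of the 48 estimates were below 0, and in 19 the day 3 libraries lay wholly below the controls. Over all tested genes 8985 of 17648 estimates were below 0, and 9.24% of genes lay wholly below. The summed level of the list was 1551 to 1607 CPM in controls and 1365 to 1401 CPM at day 3, without overlap. Under the alternatives 4 to 6 members had an estimate above 0. Irf7 (-0.09 ± 0.38, adjusted p = 0.986) and Rsad2 (-0.01 ± 0.34, adjusted p = 1) did not pass. In the fit of the 6 libraries alone 6 of the 48 were called lower, against 1.22% of all genes, among them Mx1, Ifit2 and Rtp4. The list of 18 interferon-gamma-inducible GTPases and guanylate-binding proteins, also without a called gene, had a median of -0.51.

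Day 3 was then set against the end of the 24 h exposure. Saline cells were collected on day 3 only, so the end of the exposure and time in culture cannot be told apart here. Many more genes differed: 841 (4.77%), 148 higher (0.839%) and 693 lower (3.93%) at day 3 than at 24 h, with 3041 at an unadjusted p below 0.05. Under total-count scaling 261 were higher and 534 lower. Of the 48 interferon-stimulated genes 45 were lower at day 3, with a median difference of -1.23. Their summed level had been 1966 to 3614 CPM at 24 h. Irf7 was at 61.3, 16.3 and 36.6 CPM at 24 h and 7.39, 7.73 and 6.82 CPM at day 3 (-2.38 ± 0.37, adjusted p = 0.000108). The ranges were apart, and the 24 h libraries differed widely from each other. Of 22 MHC class I genes 18 were lower, as were 18 of 27 genes of NRF2 and the pentose phosphate pathway and 15 of 29 NF-κB genes. Acod1 (-2.60 ± 0.31, adjusted p = 4.46e-06), the complement gene C3 (-3.03 ± 0.46, adjusted p = 0.000105), Ifit2 (-2.77 ± 0.47, adjusted p = 0.000435), Clec4e (-2.10 ± 0.31, adjusted p = 7.7e-05) and Tmem176a (-2.09 ± 0.39, adjusted p = 0.00119) were among the largest differences under the named-gene rule. The ribonuclease gene Rnase4 (1.23 ± 0.26, adjusted p = 0.00373) and the cyclin gene Ccnd2 (1.17 ± 0.26, adjusted p = 0.00607) were higher at day 3. In this comparison calls were lost with the groups fitted alone for Acod1 (0.0606), C3 (0.139), Clec4e (0.0734), Ifit2 (0.166), Irf7 (0.113), Rnase4 (0.116) and Tmem176a (0.178) and without 24 h replicate 1 for Ccnd2 (0.063) and Rnase4 (0.0634) (edgeR adjusted p in parentheses). The count was 286 without 24 h replicate 1, 2227 without 24 h replicate 2, 384 without 24 h replicate 3, and 510, 537 and 460 without day 3 replicates 1, 2 and 3. It was 312 with the 2 groups fitted alone. The 45 interferon-stimulated genes became 25 without 24 h replicate 1 and 18 with the groups fitted alone; the 18 MHC class I genes became 11 and 6 in the same fits, and the 15 NF-κB genes became 6 with the groups alone. The 18 NRF2 and pentose phosphate genes became 12 without 24 h replicate 1, 24 h replicate 3 or day 3 replicate 2.

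Of the 77 genes higher at day 3 than in controls, 1 was higher at day 3 than at 24 h, 19 were lower and 57 did not differ at the threshold. Of the 39 lower genes, none was higher than at 24 h, 12 were lower and 27 did not pass. Of all tested genes 0.839% were higher and 3.93% lower at day 3 than at 24 h. Spp1 was the one gene called higher in both comparisons, at 3981, 4714 and 4432 CPM at 24 h and 6201, 5979.6 and 5929 CPM at day 3 (0.46 ± 0.12, adjusted p = 0.0186), with ranges that did not overlap. Gpnmb stood at 13040.0, 9799 and 13817 CPM at 24 h (0.01 ± 0.1, adjusted p = 0.991) and Dio2 at 20.8, 15.8 and 16.7 CPM (-0.47 ± 0.31, adjusted p = 0.475). Neither passed. Cd274 was at 131, 95.9 and 107 CPM at 24 h (-1.29 ± 0.14, adjusted p = 2.83e-07) and Procr at 39.8, 27.4 and 34.1 CPM (-1.87 ± 0.21, adjusted p = 2.11e-06). Both were above their controls but below their 24 h levels, and 24 h replicate 2 was the lowest 24 h library in each. In this comparison calls were lost without 24 h replicate 1 for Spp1 (0.181), without 24 h replicate 3 for Spp1 (0.0704), without day 3 replicate 1 for Spp1 (0.0781), without day 3 replicate 2 for Spp1 (0.0524) and without day 3 replicate 3 for Spp1 (0.0539) (edgeR adjusted p in parentheses). Among the falls, F13a1 was at 2.76, 5.55 and 4.08 CPM at 24 h (0.14 ± 0.38, adjusted p = 0.911). Tlr2 was at 190.1, 183 and 208 CPM (-0.92 ± 0.11, adjusted p = 2.11e-06), Aif1 at 69.2, 57.9 and 73.3 CPM (-0.98 ± 0.14, adjusted p = 1.46e-05) and Fpr1 at 12.6, 9.56 and 15.4 CPM (-1.41 ± 0.22, adjusted p = 0.000107). These last 3 were lower at day 3 than at 24 h. The 2 comparisons share the day 3 libraries, so their values are not independent.

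**Figure D4:**
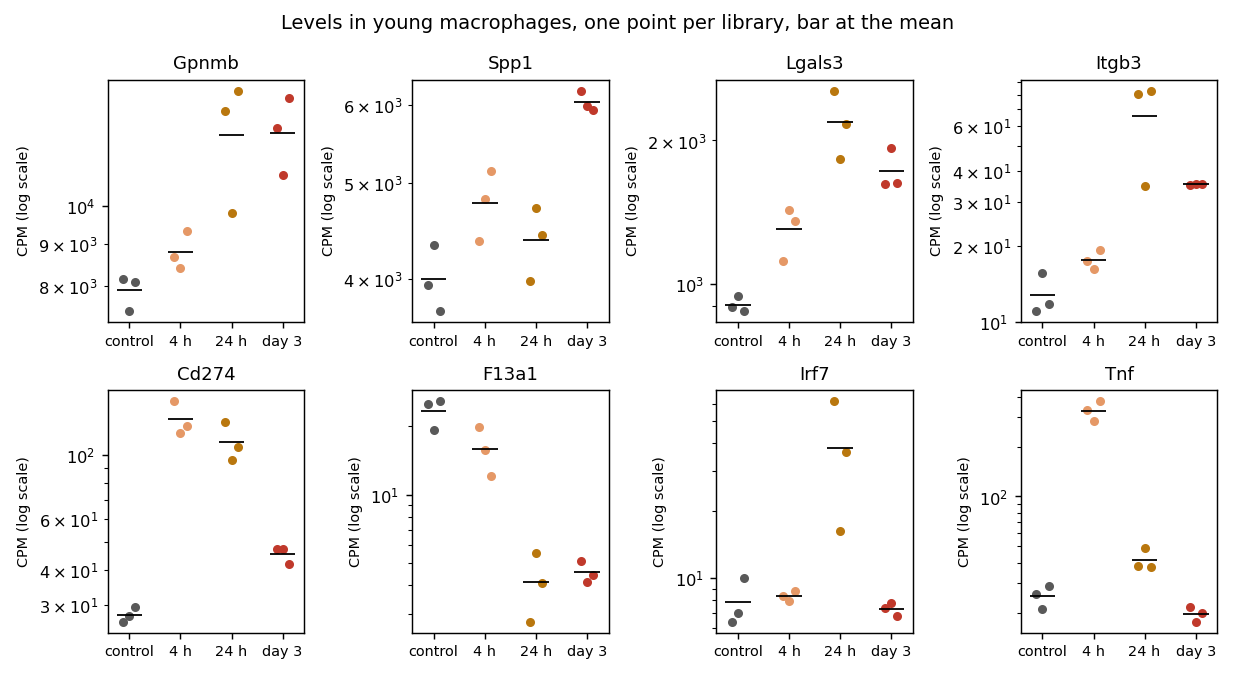
CPM per library (log axis) of 8 genes in young cells, in the saline control and at 4 h, 24 h and day 3 of the β-glucan schedule, with the bar at the mean of n = 3; the control was collected on day 3. Spp1 is highest at day 3, F13a1 is low at 24 h and day 3, and Irf7 and Tnf have day 3 libraries in or near the control range after higher levels at 24 h and 4 h.

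The same comparison in cells from aged mice, added after the young results were seen, used other libraries throughout. In aged cells 50 genes (0.283%) were called at day 3, 32 higher (0.181%) and 18 lower (0.102%), and 1405 had an unadjusted p below 0.05. Of the 77 genes that rose in young cells 75 had an aged estimate above 0 and 25 (32.5%) were called higher. Of the 39 that fell all had an aged estimate below 0 and 11 (28.2%) were called lower. Over all tested genes 8534 of 17648 aged estimates were above 0. The median change of the 77 was 0.47 in aged cells and 0.76 in young cells, where they had been chosen, and that of the 39 was -0.45 and -0.62. Dio2 had 1.51, 1.49 and 1.7 CPM in aged controls and 11.9, 10.3 and 7.89 CPM in aged day 3 cells (2.68 ± 0.35, adjusted p = 6.49e-05). F13a1 had 20.2, 19.2 and 17.7 CPM and 3.02, 5.27 and 5.61 CPM (-2.04 ± 0.37, adjusted p = 0.0073). Both genes were apart between the aged groups as well. Lgals3 (0.71 ± 0.13, adjusted p = 0.00639), Mfge8 (0.89 ± 0.15, adjusted p = 0.00273), Gpnmb (0.54 ± 0.1, adjusted p = 0.0101), Fpr1 (-1.37 ± 0.24, adjusted p = 0.00614), BE692007 (-0.80 ± 0.12, adjusted p = 0.000541) and Pilrb1 (-1.13 ± 0.17, adjusted p = 0.000541) were called in aged cells too. Among these, calls were lost without aged day 3 replicate 1 for F13a1 (0.115), Fpr1 (0.107), Gpnmb (0.119), Lgals3 (0.0908) and Mfge8 (0.0528) and without aged control replicate 2 for F13a1 (0.0664), Fpr1 (0.0758), Gpnmb (0.161), Lgals3 (0.151) and Mfge8 (0.07) (edgeR adjusted p in parentheses). The number of the 116 called in both ages, 36, fell to 3 without aged control replicate 2, 4 without aged day 3 replicate 1, and 16 without either aged control replicate 1 or aged day 3 replicate 3.

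No gene passed the test of a different day 3 effect between the ages (0%, edgeR quasi-likelihood test). At an unadjusted p below 0.05 there were 519 genes, and DESeq2 called 2. A p that misses the threshold does not show equal effects. Among the 116, the genes with an unadjusted p below 0.05 for the difference numbered 15. The 116 were chosen on the young libraries that also enter this difference. That choice alone can raise their number, so nothing is concluded from the 15. Inhba, picked after its values were seen, was at 4.61, 4.89 and 7.19 CPM in aged controls and 5, 4.38 and 7.62 CPM in aged day 3 cells. The estimate of its effect was higher in young cells by 1.40 ± 0.38 but did not pass (unadjusted p = 0.000721, adjusted p = 0.957). Its young change was 0.667 against young control replicates 4 to 6 (edgeR adjusted p = 0.0923), so the estimate depended on the control set. Ccl4 was at 31.1, 27.8 and 37.7 CPM and 45, 44.9 and 45.6 CPM in aged cells. The estimate of its effect was higher in young cells by 0.54 ± 0.17 but did not pass either (unadjusted p = 0.00354, adjusted p = 1).

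**Figure D5:**
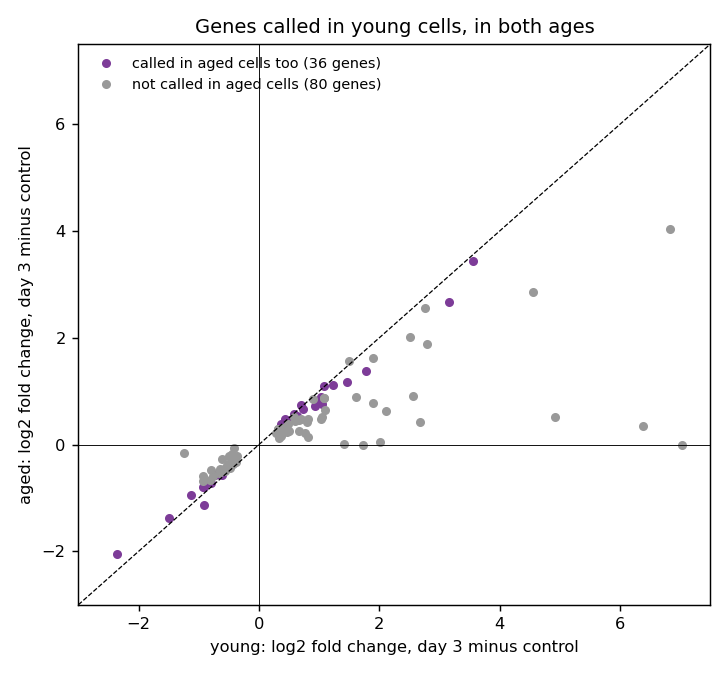
Each point is 1 of the 116 genes called in young cells, with its log2 fold change of day 3 over control in young cells on the x axis and in aged cells on the y axis; the dashed line marks equal change. The 36 purple genes were called in aged cells too and the 80 grey genes were not; the median change of the 77 rising genes is 0.76 in young and 0.47 in aged cells.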

How the data were processed

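Gene expression was measured in 42 bulk RNA libraries of cultured mouse macrophages. Raw counts per gene, whole numbers in 1 column per library, were deposited by the authors, and reads had been processed with STAR on the mm10 build, per the submitters' processing notes. The counting program, the annotation release and the strand setting are not given in the sources used here, so reads of overlapping genes on opposite strands or of near-identical copies may have been shared. The count table gives the gene names and positions. The FPKM table was not used.

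The analysis used edgeR 4.0.16 (R 4.3.3). Genes passed filterByExpr with a minimum count of 10, which left 17648 of 54532 (32.4%). Libraries were scaled by TMM. A quasi-likelihood model (trended dispersion, robust, legacy off) was fitted to all 42 libraries with 14 groups, young control and young LPS replicates 4 to 6 being groups of their own. The threshold was 0.05 after Benjamini-Hochberg adjustment across every tested gene, and SE is the log2 fold change over the root of F. DESeq2 1.42.0 and other settings were alternatives. The aged day 3 comparison was added after the data were seen.

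The members, the 53 gene lists and the key genes were chosen with earlier results of these data known. Named genes were taken by a rule: the 15 largest rises and falls that were called, with groups that did not overlap and a mean log2 CPM of 3 or more, the key genes, up to 5 called members per list and direction, the 3 most abundant genes of other cell types, the 6 largest changes against 24 h, and the 5 largest gains and losses of library share. Exceptions are named as such. List members are described by counts and medians. Upstream windows of 250 bases came from RefSeq (GRCm38.p6), matched by symbol for 11337 tested genes and 91 of 116 called genes. Intervals and floors (3 counts) cover counting error only.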

Additional observations from a re-analysis of the deposited data

How the results depend on the processing

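For day 3 against control in young cells the count of 116 genes became 231 with DESeq2, 437 with the 6 libraries fitted alone, 205 with young replicates 1 to 3, 395 with all 6 young controls pooled and 2368 against young control replicates 4 to 6. It ran from 48 to 99 when 1 library was left out, and 32 of the 116 were called in all 6 of these fits. For day 3 against 24 h the count of 841 became 312 with the groups fitted alone, and ran from 286 to 2227 with 1 library left out. The age difference gave 2 genes with DESeq2 and 442 against young control replicates 4 to 6, and 0 in each fit that left out 1 library. The aged count of 50 became 119 with DESeq2, 91 with replicates 1 to 3 of both ages and 114 with the replicate block, and ran from 4 to 73 with 1 library left out. Of the 116 genes, 36 were called in aged cells, 60 with DESeq2, 57 with the replicate block and 3 to 39 with 1 library left out. Where a group kept 2 libraries the fit borrowed its spread from the other groups.

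Correlations of the deviations of same-numbered day 3 and control libraries were 0.021, 0.032 and 0.0035, each the highest for its day 3 library. These values do not settle whether replicate numbers pair the libraries. With the replicate block 221 genes were called at day 3, all of the 116 among them. Against young control replicates 4 to 6 the direction was reversed for 2 of the 116 genes, Myo9a (0.42) and Ntn1 (-0.13). It was also reversed for Col1a1 (-1.32), Col1a2 (-1.06), Flt1 (0.83) and Igf1 (0.66), which were not called in the main comparison. The cause was not tested. The other scaling, filter, dispersion and set-term settings kept the day 3 count between 108 and 138.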
